A study of Arabidopsis thaliana with 8 samples.

Results

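The type-A response regulators of Arabidopsis thaliana are small receiver-domain proteins that damp the response to cytokinin. They were taken here as the 10 genes ARR3, ARR4, ARR5, ARR6, ARR7, ARR8, ARR9, ARR15, ARR16 and ARR17, picked by locus identifier out of 27197 loci, so no measured value entered the choice. RNA sequencing was made on carpels, the organs that build the pistil, cut by hand from 15 inflorescences a sample over floral stages 8 to 13 in the Columbia ecotype, on plants grown on soil in long days. WT, the wild type, had 2 libraries. The nga group had 3 libraries from plants whose genotype label names NGATHA 1, 2, 3 and 4, and the 35S:NGA group had 3 libraries from an overexpression line driven by the 35S promoter, a viral promoter active in most plant tissues. NGATHA genes encode B3-domain transcription factors needed for the style and stigma. The labels name neither the alleles nor the NGATHA gene that was driven, and they give no number of plants or lines. NGA3 read 102, 120 and 166 RPKM (reads scaled by gene length and sequencing depth) in 35S:NGA against 5.47 and 4.81 in WT, and NGA4 at 0.131, 0.123 and 0.248 RPKM in nga against 3.97 and 3.83 in WT. NGA3 also read lower in nga, between 2.56 and 2.97 RPKM. The nga ranges of NGA1, 21.2 to 25.6 RPKM, and NGA2, 7.73 to 14.9 RPKM, took in the WT values, and gene totals do not show whether such a transcript is intact.

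Cytokinin is read by histidine kinase receptors in the endoplasmic reticulum, and the phosphate they receive moves through phosphotransfer proteins to response regulators in the nucleus. Type-B regulators bind DNA and switch on target genes once phosphorylated. The type-A regulators are among the first of those targets, lack a DNA-binding output domain, and act back on the relay as its brake, so their transcripts are widely used as a readout of cytokinin signalling. In the pistil, cytokinin is known for its part in the growth of the medial tissue that gives rise to placenta and ovules.

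The genes form sister pairs by sequence, ARR3 with ARR4, ARR5 with ARR6, ARR7 with ARR15, ARR8 with ARR9 and ARR16 with ARR17. The longest stretch of identical bases between spliced transcripts of any pair was 41 bases, for ARR3 with ARR4 and for ARR8 with ARR9, and the next longest was 23 bases, so reads that lie in these stretches could have been counted for either gene. The 250 bases before the annotated start were read from the RefSeq assembly TAIR10.1 for 26700 genes, among them all 10 regulators. The core motif bound by type-B regulators was searched as AGATC and as AGATT on both strands. AGATC occurred in 5 of the 10 windows and in 26.4% of all promoters, and AGATT in 7 of the 10 windows and in 63.6% of all promoters. The longer form AAGATTTT, which holds AGATT, was found in ARR6, ARR7, ARR9 and ARR16, 4 of 10, against 6.00% of all promoters. The form AAGATCTT, which holds AGATC on both strands, was found in ARR7 and in 0.820% of all promoters. In a window of 1000 bases AAGATTTT occurred in 8 of the 10 and in 20.0% of all promoters. CACCTG, the element of the related B3 factor RAV1, was found in none of the 10 windows of either length, against 2.55% and 13.5% of all promoters. Such a match is a string of letters, not a measured binding site.

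Windows of 4 members are printed 5′ to 3′ on the strand of the gene, with both forms of the core motif and their reverse complements in capitals. ARR5 and ARR9 are shown as the members that passed the test in nga, ARR7 as the most abundant member and the one with the longest runs of capitals, and ARR16 as a member whose mean was nearly equal in nga and WT. The windows are chr3:17760951-17761200 on the minus strand for ARR5, chr3:21108809-21109058 on the plus strand for ARR9, chr1:6579315-6579564 on the minus strand for ARR7 and chr2:16969423-16969672 on the plus strand for ARR16. None of the 4 overlaps an exon of its own gene.
ARR5: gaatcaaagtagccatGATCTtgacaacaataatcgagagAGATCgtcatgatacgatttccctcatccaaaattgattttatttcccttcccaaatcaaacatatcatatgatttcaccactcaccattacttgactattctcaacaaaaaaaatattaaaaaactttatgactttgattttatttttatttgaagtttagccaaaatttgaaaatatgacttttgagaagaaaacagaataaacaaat
ARR9: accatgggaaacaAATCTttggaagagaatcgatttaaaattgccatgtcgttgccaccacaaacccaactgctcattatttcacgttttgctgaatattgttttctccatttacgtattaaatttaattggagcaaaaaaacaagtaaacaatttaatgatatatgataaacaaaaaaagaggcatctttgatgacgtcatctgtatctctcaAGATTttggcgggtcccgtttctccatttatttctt
ARR7: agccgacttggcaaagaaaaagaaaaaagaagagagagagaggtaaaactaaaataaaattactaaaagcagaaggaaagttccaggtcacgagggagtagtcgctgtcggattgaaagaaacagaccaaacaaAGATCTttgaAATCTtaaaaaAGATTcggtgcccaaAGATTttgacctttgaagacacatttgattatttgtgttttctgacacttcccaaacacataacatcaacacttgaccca
ARR16: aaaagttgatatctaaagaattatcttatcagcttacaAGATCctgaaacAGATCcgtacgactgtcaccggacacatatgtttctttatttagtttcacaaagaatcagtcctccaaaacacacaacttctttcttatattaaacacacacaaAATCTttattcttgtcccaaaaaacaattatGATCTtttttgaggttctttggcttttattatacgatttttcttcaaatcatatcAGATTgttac
ARR5 held AGATC at 2 places and ARR9 held AGATT at 2 places, so the pair that passed the test shared neither form in this window. ARR16, with a log2 difference of 0.01 between nga and WT, held AGATC at 3 places.

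At least 2 libraries showed 1 RPKM or more for 8 of the 10 regulators, and these 8 were tested. Summed over all 10 genes, type-A transcripts came to 62.5 and 52.8 RPKM for the WT libraries, to 132, 155 and 77.8 RPKM for nga 1, nga 2 and nga 3, and to 64.6, 63.2 and 98.4 RPKM for the 35S:NGA libraries. The sums of nga 1 and nga 2 lay above the 6 other libraries, and nga 3 lay below 35S:NGA 3. ARR7 made up 29.8% to 42.5% of this sum and ARR4 18.0% to 27.3% across the 8 libraries. In WT the order of mean RPKM was ARR7, ARR4, ARR5, ARR8, ARR16, ARR15, ARR9, ARR6, ARR17 and ARR3. The WT ranges of ARR8, ARR16 and ARR15 overlapped with their neighbour in that order, and the other neighbours stood apart. In nga each neighbour from ARR7 down to ARR16 overlapped the next, with ARR9 and ARR15 now above ARR8. In 35S:NGA the neighbours ARR8, ARR15 and ARR9 overlapped, as did ARR3 and ARR17.

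**Figure D1:**
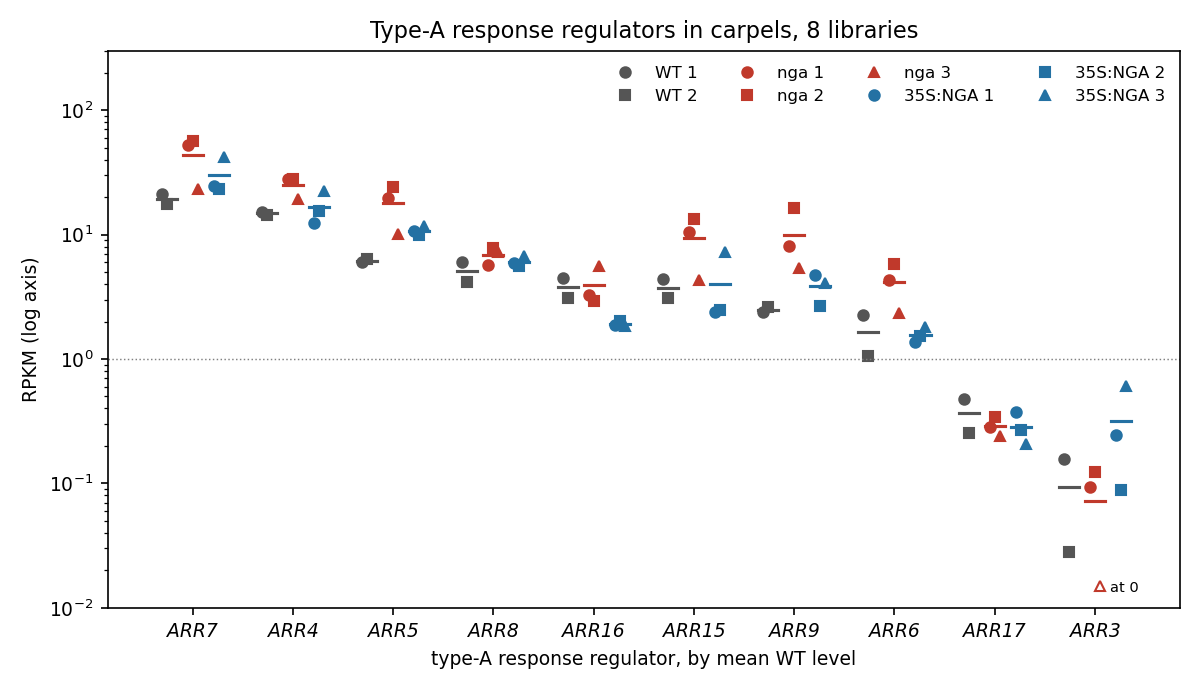
RPKM of the 10 type-A response regulators (log axis) in each of the 8 carpel libraries, ordered by mean WT level; symbols are single libraries, short bars are group means and the dotted line is 1 RPKM. The open triangle marks ARR3 listed at 0 in nga 3. ARR7, ARR4, ARR5, ARR9, ARR15 and ARR6 have nga 1 and nga 2 above the 6 other libraries, while ARR17 and ARR3 stay below 1 RPKM throughout.

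Differences were tested with limma on log2(RPKM + 1) in 1 fit over all 8 libraries and 17786 genes, with Benjamini-Hochberg adjustment over all of them, and calls were made where the adjusted p was under 0.05. On this scale the change of weakly expressed genes is understated. The labels do not state separate plants for the replicates, so the p-values reflect the spread of these samples alone, and that spread may be technical. In bulk carpels, more cells of a type and more RNA per cell cannot be told apart. Mapped reads ranged from 23.1 M to 38.3 M a library, worked out from the steps between low values. The file headers name sequencing lane 6 for both WT libraries, nga 1 and nga 2, lane 8 for nga 3 and 35S:NGA 3, and lane 7 for the rest. Lane 6 thus holds nga and WT, lane 8 holds 1 library each of nga and 35S:NGA, and no lane holds 35S:NGA with WT. With lane as a term in the fit, 35S:NGA against nga becomes the difference between 35S:NGA 3 and nga 3, and WT is reached from there over lane 6. For the type-A regulators those values stand beside each comparison of 35S:NGA. Carpel markers were present, with 10 of 10 at 1 RPKM or more.

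The comparison of nga with WT asks what follows the loss of NGATHA function. ARR5 and ARR9 rose in nga, 2 of the 8 tested regulators, and none fell. Over all genes 16.9% were called, 9.26% as higher. The log2 difference of the 8 had a median of 0.98, against -0.00082 over all genes, and all 8 values were above 0. Every nga library exceeded every WT library for 5 of the 8, ARR4, ARR5, ARR6, ARR7 and ARR9, a pattern that 29.4% of all tested genes had. An unadjusted p under 0.05 was reached by these same 5 regulators and by 36.3% of all genes.

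ARR5 (AT3G48100, chromosome 3, 17758427 to 17760950, minus strand), whose promoter drives a common cytokinin reporter, read 6.02 and 6.35 RPKM in the WT libraries and 19.8, 24.1 and 10.2 RPKM in nga 1, nga 2 and nga 3. All nga values lay above both WT values, and nga 3 stood at 0.464 times the mean of nga 1 and nga 2. The mean went from 6.18 ± 0.233 (SD, n = 2) in WT to 18.0 ± 7.14 (SD, n = 3) in nga. By limma ARR5 rose by 1.33 ± 0.30 (log2, SE; adjusted p = 0.0276), a 2.51-fold difference of RPKM + 1.

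Its sister ARR6 (AT5G62920, chromosome 5, 25252007 to 25254318, minus strand) stood lower, with 2.24 and 1.05 RPKM in the WT libraries and 4.31, 5.79 and 2.36 RPKM in nga 1, nga 2 and nga 3. The nga 3 value was just above the higher WT value. The log2 difference was 0.94 ± 0.31 and did not pass (limma, adjusted p = 0.0716). The gene overlaps AT5G62910 on the opposite strand by 348 bases. That gene read 9.48 and 10.5 RPKM in the WT libraries and 15.6, 17.1 and 16.0 RPKM in nga 1, nga 2 and nga 3, and no source says that the libraries keep strand, so reads in the overlap cannot be told apart.

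ARR9 (AT3G57040, chromosome 3, 21109059 to 21111567, plus strand) had the largest difference of the 8. It read 2.37 and 2.61 RPKM in the WT libraries and 8.08, 16.2 and 5.41 RPKM in nga 1, nga 2 and nga 3. The groups did not overlap, and nga 2 was the highest library. The mean went from 2.49 ± 0.174 (SD, n = 2) in WT to 9.91 ± 5.64 (SD, n = 3) in nga, and by limma ARR9 rose by 1.52 ± 0.38 (log2, SE; adjusted p = 0.0353). ARR9 made up 3.79% and 4.96% of the summed type-A RPKM in the WT libraries and 6.12%, 10.5% and 6.95% in nga 1, nga 2 and nga 3.

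Its sister ARR8 (AT2G41310, named RR3 in the files, chromosome 2, 17221840 to 17224880, plus strand) read 5.97 and 4.16 RPKM in the WT libraries and 5.73, 7.75 and 7.18 RPKM in nga 1, nga 2 and nga 3. The groups overlapped, since nga 1 was below WT 1. The log2 difference was 0.39 with a 95% interval of -0.04 to 0.81 (limma, adjusted p = 0.166). ARR9 thus went from below ARR8 in both WT libraries to above it in nga 1 and nga 2, but not in nga 3. An annotated lncRNA on the opposite strand overlaps ARR9 by 231 bases and ARR8 by 299 bases, with the same limit as for ARR6.

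ARR7 (AT1G19050, chromosome 1, 6577833 to 6579314, minus strand) and ARR15 (AT1G74890, chromosome 1, 28131447 to 28133025, minus strand) are known as regulators of the shoot meristem that the stem cell factor WUSCHEL represses. ARR7 read 21.2 and 17.7 RPKM in the WT libraries and 52.0, 56.4 and 23.2 RPKM in nga 1, nga 2 and nga 3. ARR15 read 4.36 and 3.11 RPKM in the WT libraries and 10.5, 13.3 and 4.29 RPKM in nga 1, nga 2 and nga 3. In both genes nga 1 and nga 2 were far above WT, while nga 3 was just above WT 1 for ARR7 and between the WT libraries for ARR15. The log2 differences were 1.04 ± 0.39 for ARR7 (limma, adjusted p = 0.0979) and 1.02 ± 0.50 for ARR15 (limma, adjusted p = 0.174), and neither passed.

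ARR4 (AT1G10470, chromosome 1, 3441988 to 3444360, minus strand), which binds the photoreceptor phytochrome B, read 15.2 and 14.4 RPKM in the WT libraries and 27.9, 27.9 and 19.4 RPKM in nga 1, nga 2 and nga 3. All nga values lay above WT. The log2 difference of 0.71 ± 0.25 did not pass (limma, adjusted p = 0.0822). Its sister ARR3 (AT1G59940) was below 1 RPKM in every library, between 0 and 0.611 RPKM, with about 25 reads at most, and was not tested.

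ARR16 (AT2G40670, chromosome 2, 16969673 to 16972113, plus strand) read 4.49 and 3.11 RPKM in the WT libraries and 3.25, 2.90 and 5.55 RPKM in nga 1, nga 2 and nga 3. Here nga 3 was the highest and nga 2 the lowest of these 5 libraries, so the WT range lay inside that of nga. The log2 difference was 0.01 with a 95% interval of -0.55 to 0.56 (limma, adjusted p = 0.987). ARR17 (AT3G56380), its sister, lay between 0.209 and 0.479 RPKM in all libraries, with about 4 to 11 reads, and was not tested.

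**Figure D2:**
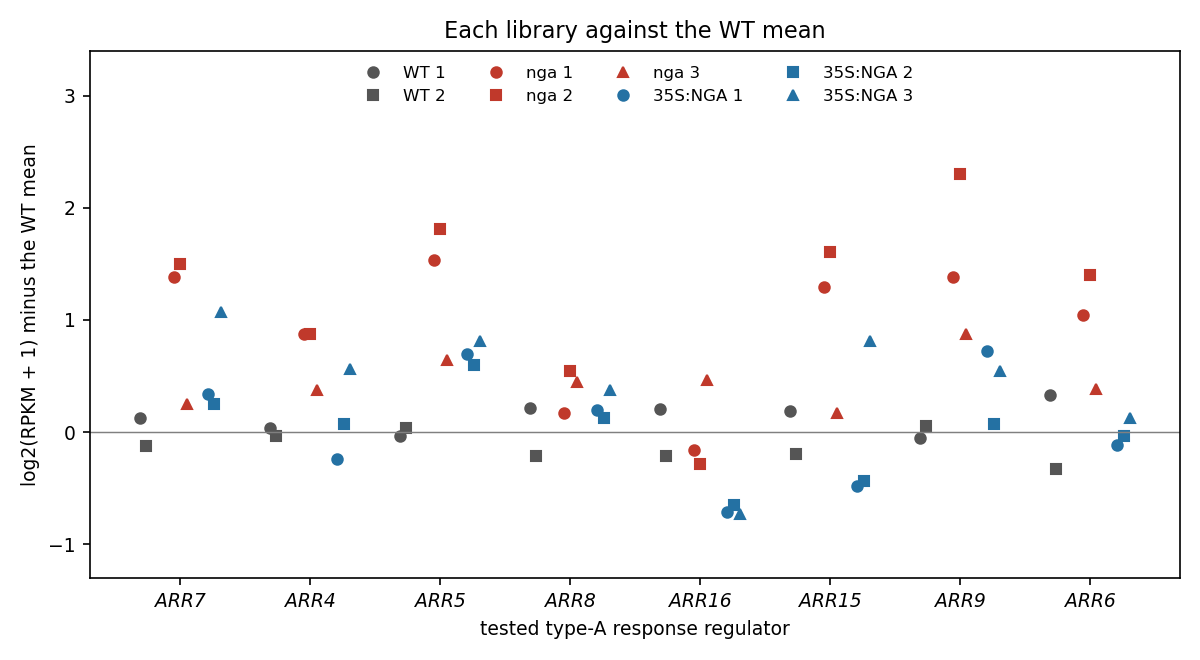
Difference of log2(RPKM + 1) between each library and the mean of the WT libraries for the 8 tested type-A response regulators; each symbol is a library and the line at 0 is the WT mean. For ARR7, ARR4, ARR5, ARR15, ARR9 and ARR6 nga 3 lies below nga 1 and nga 2, for ARR16 it lies above them, and all 35S:NGA libraries are below WT for ARR16.

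Both calls were lost without any 1 of 4 libraries, and then none of the 8 regulators passed. Without nga 2 the adjusted p (limma) was 0.0629 for ARR5 and 0.0565 for ARR9, with 4.75% of all genes called, and without nga 1 it was 0.0791 and 0.0793, with 2.77% called. Without WT 1 it was 0.125 and 0.147, with 0.231% called, and without WT 2 it was 0.194 and 0.213, with 0.264% called. A fit of only the nga and WT libraries gave 0.0621 and 0.0650, with 9.62% of all genes called and again none of the 8.

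The nga libraries differed among themselves in the same way for most members. For ARR4, ARR5, ARR6, ARR7, ARR9 and ARR15, 6 of the 8, nga 1 and nga 2 stood above the 6 other libraries, against 14.8% of all tested genes. For 5 of these, all but ARR15, nga 3 fell between the WT libraries and both other nga libraries, against 16.3%. These arrangements were picked out after the values were seen. The ratio of nga 3 to the mean of nga 1 and nga 2 was 0.361 for ARR15, 0.428 for ARR7, 0.445 for ARR9, 0.464 for ARR5, 0.466 for ARR6 and 0.696 for ARR4, but 1.07 for ARR8 and 1.80 for ARR16.

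Within lane 6, where nga 1 and nga 2 met WT 1 and WT 2, the 6 regulators ARR4, ARR5, ARR6, ARR7, ARR9 and ARR15 rose, with 31.0% of all genes called in that fit and 15.2% called as higher. The log2 differences there were 1.84 ± 0.32 for ARR9 (limma, adjusted p = 0.0174), 1.67 ± 0.15 for ARR5 (adjusted p = 0.00787), 1.45 ± 0.20 for ARR15 (adjusted p = 0.0122), 1.44 ± 0.13 for ARR7 (adjusted p = 0.00808), 1.22 ± 0.28 for ARR6 (adjusted p = 0.0308) and 0.88 ± 0.11 for ARR4 (adjusted p = 0.0106). ARR8 at 0.36 and ARR16 at -0.22 did not pass. The fit of all libraries but nga 3 called the same 6, with 28.8% of all genes called and 13.6% called as higher. In RPKM, the mean of nga 1 and nga 2 was 4.88 times the WT mean for ARR9, 3.55 times for ARR5, 3.18 times for ARR15, 3.07 times for ARR6, 2.79 times for ARR7 and 1.89 times for ARR4. For nga 3 the same ratios were 2.17, 1.65, 1.15, 1.43, 1.19 and 1.32. Whether nga 3 differs through its lane or as a sample cannot be told apart.

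Several marker lists also moved between these libraries, and their part in the type-A values was not tested. The meristem markers STM, WUS and CLV3 summed to 27.1 and 27.6 RPKM in the WT libraries, to 44.2 to 46.9 RPKM across nga and to 23.8 to 25.6 RPKM across 35S:NGA. Of these 3, STM and WUS reached 1 RPKM, CLV3 was listed at 0 in all libraries, and STM rose in nga by 0.74 ± 0.12 (log2; limma, adjusted p = 0.0133), a call lost without WT 1 or WT 2, where its adjusted p reached 0.148. By library the meristem marker sum was 44.4, 46.9 and 44.2 RPKM in nga 1, nga 2 and nga 3. The 11 green tissue markers, all at 1 RPKM or more, summed to 3825 and 3951 RPKM in the WT libraries, to 4642, 7589 and 4396 RPKM for nga and to 4248, 4391 and 9573 RPKM for 35S:NGA. The 8 mature pollen markers, 5 of them at 1 RPKM or more and AGP11 and DUO1 below 0.1 RPKM throughout, summed to 20.8 and 49.8 RPKM in WT, 63.2 to 112 in nga and 52.9 to 212 in 35S:NGA. The 9 tapetum and microspore markers, 8 of them at 1 RPKM or more in some library, summed to 53.8 and 15.2 RPKM in WT, 33.4 to 65.4 in nga and 24.3 to 33.5 in 35S:NGA. Of the 4 tested tapetum and microspore markers LAP6 rose in nga by 0.88 ± 0.22 (log2; limma, adjusted p = 0.0338) and TKPR1 by 1.14 ± 0.23 (adjusted p = 0.0214). LHCA4 among the green tissue markers, PI among the sepal, petal and stamen markers, and SHP2 and INO among the carpel markers were also called as higher in nga, and all 6 calls were lost without WT 1 and without WT 2. Over all genes 9.26% were called as higher in nga. Other markers of these lists lay below 0 in nga against WT, among them RBCS2B at -1.20, RBCS3B at -0.66, STK at -0.46 and AP3 at -0.39. Above 0 were 8 of 11 green tissue markers and 8 of 10 carpel markers. The sepal, petal and stamen markers AP1, AP3 and PI summed to 21.0 and 20.1 RPKM in WT. They summed to 18.6, 16.3 and 22.0 RPKM for nga and to 15.7 to 20.6 RPKM across 35S:NGA. The 8 circadian clock genes, all at 1 RPKM or more in some library, summed to 91.7 and 140 RPKM in the WT libraries, to 245, 443 and 111 RPKM for nga and to 209, 177 and 136 RPKM for 35S:NGA. The clock sums of nga 1 and nga 2 were the highest, with much of the nga 2 sum from the morning genes CCA1 and LHY. In nga 2 CCA1 read 132 RPKM and LHY 115 RPKM, against at most 2.86 and 1.19 in the other libraries.

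For 35S:NGA against WT, the comparison of gained function, none of the 8 regulators was called, with 0.152% of all genes called. By limma 2 of the 8 had an unadjusted p under 0.05, near the 20.4% of all genes that had one. These were ARR5 and ARR16, which lay on opposite sides of WT. The median log2 difference of the 8 was 0.18, against 0.015 over all genes. With lane as a term the values were larger: the median was 1.29 against -0.06 over all genes, and 6 of the 8 had an unadjusted p under 0.05, as did 24.9% of all genes. The log2 differences were then 2.26 ± 0.22 for ARR7 (limma, adjusted p = 0.0532), 2.09 ± 0.33 for ARR15 (adjusted p = 0.0741), 1.85 ± 0.24 for ARR5 (adjusted p = 0.0662), 1.51 ± 0.60 for ARR9 (adjusted p = 0.197), 1.07 ± 0.24 for ARR4 (adjusted p = 0.109) and -1.42 ± 0.32 for ARR16 (adjusted p = 0.109). None of the 8 was called in that fit, with 0.0787% of all genes called.

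ARR5 was listed at 10.6, 9.88 and 11.6 RPKM in 35S:NGA, all above the 6.02 and 6.35 of WT, with a mean of 10.7 ± 0.871 (SD, n = 3). Its log2 difference was 0.70 ± 0.30 (limma, adjusted p = 0.240). ARR16 was listed at 1.89, 2.02 and 1.86 RPKM, all below the 4.49 and 3.11 of WT. Its mean was 1.92 ± 0.0863 (SD, n = 3) against 3.80 ± 0.979 (SD, n = 2), and the log2 difference was -0.70 with a 95% interval of -1.26 to -0.14 (limma, adjusted p = 0.183). ARR16 was the only one of the 8 with every 35S:NGA library below every WT library, where 23.3% of all genes had that order. The reverse order was seen in ARR5, ARR7 and ARR9, 3 of 8, and again in 23.3% of all genes.

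ARR7 was listed at 24.8, 23.2 and 41.8 RPKM in 35S:NGA and ARR9 at 4.76, 2.66 and 4.08 RPKM. The lowest of these values were just above WT. Their log2 differences were 0.55 ± 0.39 (limma, adjusted p = 0.447) and 0.44 ± 0.38 (adjusted p = 0.531). ARR4 at 12.3, 15.6 and 22.3 RPKM and ARR15 at 2.37, 2.48 and 7.24 RPKM had 35S:NGA 3 above WT, while 35S:NGA 1 and 35S:NGA 2 lay around or below WT. For ARR15 the 95% interval of the log2 difference from WT ran from -1.18 to 1.11, so a change of about the size seen in nga is not shown to be absent. ARR6 at 1.38, 1.52 and 1.81 RPKM lay within the WT range. ARR8 was listed at 5.88, 5.54 and 6.76 RPKM and overlapped WT.

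The comparison of 35S:NGA with nga sets gain against loss, and it shares libraries with both comparisons above. All 8 regulators had lower means in 35S:NGA, with a median log2 difference of -0.67 against 0.0028 over all genes, yet none was called, with 5.34% of all genes called. By limma 6 of the 8 had an unadjusted p under 0.05, as did 24.7% of all genes. With lane as a term the median was 0.050 against -0.05 over all genes, and 4 of the 8 turned to higher in 35S:NGA, ARR7 at 0.82, ARR15 at 0.64, ARR4 at 0.19 and ARR5 at 0.17. ARR16 stayed lower at -1.20, 2 of the 8 had an unadjusted p under 0.05 against 14.2% of all genes, and none was called, with 0.815% of all genes called. Without that term the log2 differences were -1.08 ± 0.34 for ARR9 (limma, adjusted p = 0.106), -1.06 ± 0.45 for ARR15 (adjusted p = 0.192), -0.95 ± 0.28 for ARR6 (adjusted p = 0.0909) and -0.71 ± 0.22 for ARR16 (adjusted p = 0.0986). The remaining 4 lay between -0.62 for ARR5 and -0.15 for ARR8. ARR6, ARR9 and ARR16 had every 35S:NGA library below every nga library, 3 of 8 against 12.8% of all genes.

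Leaving out lane 8 libraries moved the values the other way. Without nga 3, ARR5, ARR6, ARR9 and ARR15 fell in 35S:NGA against nga, 4 of 8, with 14.1% of all genes called and 5.36% called as lower. ARR15 then had a log2 difference of -1.48 (limma, adjusted p = 0.0469) and ARR5 of -0.97 (adjusted p = 0.00782). Without both lane 8 libraries, ARR4, ARR5, ARR6, ARR7 and ARR15 fell, 5 of 8, with 11.5% of all genes called and 3.74% called as lower. In either of these fits no lane holds both groups, and the lane cannot be told apart from the genotype. After quantile normalization of all 8 libraries ARR16 passed, at -0.86 (limma, adjusted p = 0.0429), as 1 of 8 with 5.54% of all genes called.

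**Figure D3:**
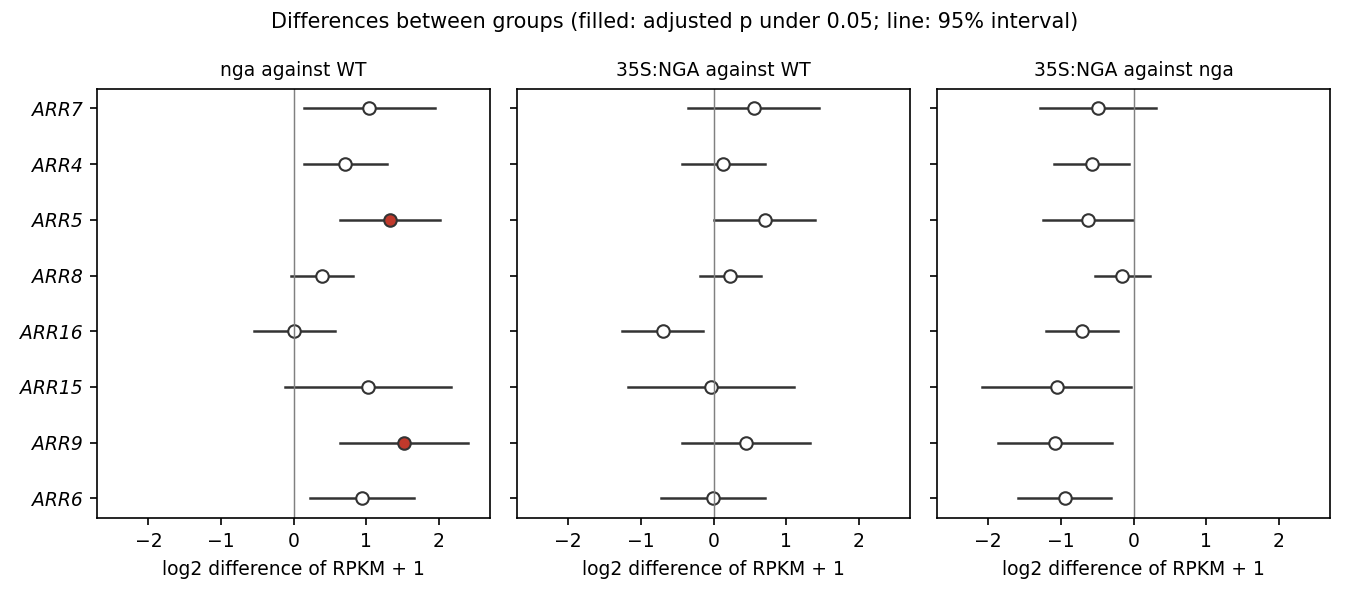
Log2 differences of RPKM + 1 between groups for the 8 tested type-A response regulators, from the limma fit over 8 libraries; points are estimates, lines are 95% intervals and filled points have an adjusted p under 0.05. ARR5 and ARR9 in nga against WT are the filled points, all 8 points lie below 0 in 35S:NGA against nga in this fit, which has no lane term, and ARR16 lies at 0.01 in nga but at -0.70 in 35S:NGA.

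Across the 8 libraries, log2(RPKM + 1) of ARR4, ARR5, ARR6, ARR7, ARR9 and ARR15 varied together, with pairwise Pearson r from 0.769 (ARR4 with ARR9) to 0.951 (ARR4 with ARR15). ARR16 had r between -0.223 and 0.270 with the other tested members. The points share 3 genotypes, the lanes and the depth of their libraries, so these values only describe these 8 libraries. Among 6426 tested genes that had a symbol and averaged at least 5 RPKM, 290 had r of 0.9 or more with ARR5. The 4 most like it were SPX4, a phosphate-sensing protein gene (r = 0.980), IBR3, needed for the response to indole butyric acid (r = 0.979), WIP2 (r = 0.977) and UNE16 (r = 0.976). For ARR9, 286 genes reached 0.9, led by AT1G78690 (r = 0.990), ENP, a partner of PINOID in organ formation (r = 0.988), MBD02 (r = 0.983) and TBL10 (r = 0.982). ENP read 21.3 and 21.9 RPKM in the WT libraries, then 64.7, 113 and 41.5 RPKM for nga, then 40.6, 21.4 and 26.2 RPKM for 35S:NGA, with nga 2 highest as for ARR9.

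Upstream of the type-A regulators, the relay was read from lists of known parts. Over all genes 16.9% were called in nga against WT, 9.26% as higher. Of 3 tested histidine kinase receptor genes 1 rose in nga, AHK3, which read 23.2 and 19.8 RPKM in the WT libraries and 41.2, 52.6 and 30.9 RPKM in nga 1, nga 2 and nga 3 (log2 difference 0.89 ± 0.23; limma, adjusted p = 0.0373). Of 3 phosphotransfer genes AHP3 rose by 0.46 ± 0.12 (adjusted p = 0.0378). Of 6 type-B regulators, the activators of type-A genes, ARR1 rose by 1.19 ± 0.24 (adjusted p = 0.0218) and ARR2 by 0.93 ± 0.20 (adjusted p = 0.0240). ARR1 read 18.7 and 16.9 RPKM in the WT libraries, then 40.2, 58.7 and 31.5 RPKM for nga, then 41.2, 31.5 and 37.5 RPKM for 35S:NGA. All 6 mutant and overexpression libraries were thus above WT for ARR1. The receptor genes AHK3 and AHK4 and the type-B gene ARR2 had that order too, as did the type-A regulators ARR5, ARR7 and ARR9. So did other listed genes, among them LOG1, LOG5 and the carpel marker SHP1, and the order was picked out after the values were seen. Its share over all genes was not counted. Every nga library exceeded every WT library in 29.4% of all tested genes, and every 35S:NGA library did so in 23.3%. The KMD F-box proteins, which mark type-B regulators for breakdown, rose in 3 of 3 tested, KMD1 by 3.38 ± 0.58 (adjusted p = 0.0160), KMD4 by 3.22 ± 0.64 (adjusted p = 0.0214) and KMD2 by 1.12 ± 0.29 (adjusted p = 0.0373). In nga 1, nga 2 and nga 3 KMD1 read 48.2, 129 and 32.0 RPKM, against 7.17 and 3.02 in WT. KMD4 read 18.0, 53.5 and 13.1 RPKM, against 1.99 and 1.31 in WT, and nga 2 was highest of the nga libraries for both. KMD1, KMD2 and KMD4 were also above both WT libraries in every 35S:NGA library, an order that 23.3% of all tested genes had. Their log2 differences from WT there, in the fit without a lane term, were 2.89 ± 0.58 for KMD1, 2.15 ± 0.64 for KMD4 and 1.63 ± 0.29 for KMD2. None of these was called in the fit of all 8 libraries (limma, adjusted p from 0.0625 to 0.154). Without nga 2, and likewise without nga 3, 2 of the 3 were called as higher. In those fits 205 and 271 of 17786 genes were called.

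None of 6 cytokinin response factors, 3 synthesis genes, 4 CKX breakdown genes or 4 other cytokinin-induced genes was called in nga against WT, with 16.9% of all genes called. Among 5 LOG genes, which release active cytokinin, LOG8 fell by 1.92 on the log2 scale (limma, adjusted p = 0.00112), from 19.0 and 17.0 RPKM to 4.09, 3.69 and 4.27, and LOG1 rose by 1.31 ± 0.34 (adjusted p = 0.0376). LOG1 read 8.41 and 9.55 RPKM in the WT libraries and 17.7, 41.8 and 18.0 RPKM in nga 1, nga 2 and nga 3. No gene of these lists was called in 35S:NGA against WT in the fit of all 8 libraries, with 0.152% of all genes called. LOG1 had a log2 difference of 1.66 ± 0.34 in that fit, which has no lane term (limma, adjusted p = 0.0860). Without nga 2, 1 type-B regulator, 1 LOG gene and 2 KMD genes were called as higher in 35S:NGA. In 35S:NGA against nga LOG8 rose by 2.54 ± 0.12 (log2, limma, adjusted p = 8.4e-05), while AHP3, CKX1 and GATA22 fell, GATA22 by 1.21 on the log2 scale (adjusted p = 0.00739). Over all genes 5.34% were called in 35S:NGA against nga. LOG8 was called without any 1 library in both comparisons, and GATA22 in its own, though with lane as a term GATA22 was lost (adjusted p = 0.102). All other relay and metabolism genes named as called in nga against WT were lost without WT 1 and without WT 2, with an adjusted p of up to 0.258 (AHP3) where 1 library was left out. Without nga 1 only KMD1 of those kept its call. In 35S:NGA against nga, CKX1 was lost without each of the 8 libraries but nga 3, and AHP3 without each but nga 3 and 35S:NGA 1. Both were also lost with lane as a term.

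**Figure D4:**
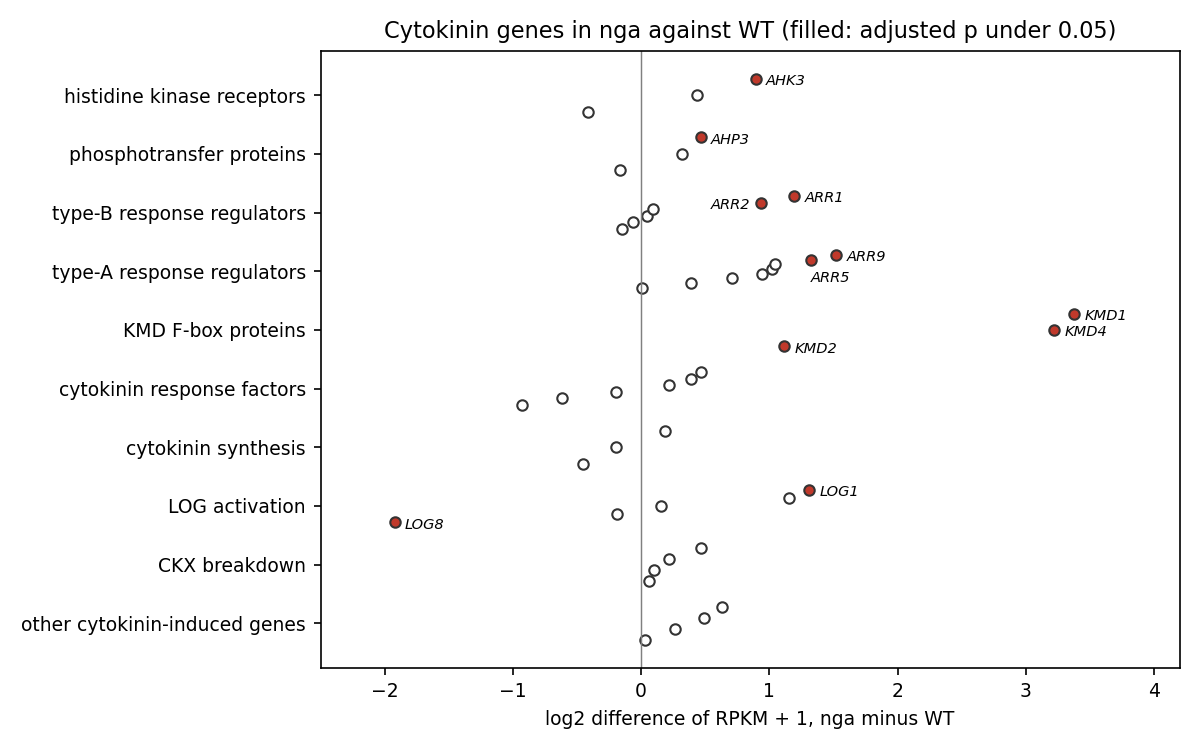
Log2 differences of RPKM + 1 between nga and WT for tested genes of the cytokinin pathway, a row for each list; each point is a gene and filled, named points have an adjusted p under 0.05 (limma, 8 libraries). All 8 type-A regulators lie above 0 with ARR5 and ARR9 filled, the 3 KMD genes lie furthest to the right as a list, and LOG8 lies furthest to the left at -1.92.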

How the data were processed

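The deposited files hold RPKM, reads scaled to gene length and depth, written with decimal commas, per the file headers and the labels, in 33590 entries per file. The libraries were TruSeq libraries run on a HiSeq2000, per the labels' protocols, and FastQC and the build TAIR10 are named in the submitters' processing notes. Neither the aligner nor the counter is given in the sources, and depth was recovered from the spacing of low values. Entries without a gene model (6374), 1 malformed entry and 18 entries of repeated loci were not used. Positions are those of TAIR10.1, where 290 of 290 feature names with coordinates overlapped. RPKM keeps no counts, so limma (3.58.1, R 4.3.3) with a mean-variance trend was run on log2(RPKM + 1) of genes that reached 1 RPKM in at least 2 libraries, after a check on simulated data. Alternatives were other normalizations, filters, pseudocounts of 0.1 and 5, a 2-fold threshold, lane fits, the replicate number as a block, only the groups compared, and leaving out each library. All members were named, with every called gene of the cytokinin lists or its count and, for ARR5 and ARR9, the 4 genes of highest Pearson r. Members and lists were chosen with earlier results of these data known. Python 3.11.15, pandas 2.3.3, numpy 2.4.6 and matplotlib 3.10.9 were used.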

Additional observations from a re-analysis of the deposited data

How the results depend on the processing

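The count of called type-A regulators in nga against WT was 2 in the fit reported, 1 with no filter (2020 of 24534 genes called) and 0 with only the groups compared. It was 6 with lane as a term (6005 of 17786 genes called), in lane 6 only (5505) and without the lane 8 libraries (6003). Leaving out 1 library gave 0 to 6. In 35S:NGA against nga it was 0, 1 after quantile normalization and 5 without the lane 8 libraries, and leaving out 1 library gave 0 to 4. In 35S:NGA against WT it was 0 under all these alternatives.

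Some small differences changed sign. ARR16 in nga against WT was -0.019 with library medians set equal, -0.10 with the replicate block, -0.22 with lane as a term, in lane 6 only, without the lane 8 libraries and without nga 3, and -0.20 without WT 2, with -0.22 to 0.22 over all fits without 1 library. ARR4 in 35S:NGA against WT was -0.087 without the lane 8 libraries and -0.087 to 0.32 leaving out 1 library. ARR6 there was 0.10 with the replicate block, 0.015 with a pseudocount of 0.1, 0.97 with lane as a term, and -0.34 to 0.32 leaving out 1 library (0.0038 to 0.32 without WT 1, 35S:NGA 1 or 35S:NGA 2). ARR15 there was 0.0093 with a pseudocount of 5, 2.09 with lane as a term, and -0.46 to 0.19 leaving out 1 library (0.16 to 0.19 without those 3). With lane as a term, 35S:NGA against nga gave 0.19 for ARR4, 0.17 for ARR5, 0.82 for ARR7 and 0.64 for ARR15. That fit ties 35S:NGA to WT only through the lane 8 libraries. For the other changes the cause was not tested.

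Over all genes the counts called moved more. In nga against WT, 3008 became 1711 with only the groups compared, 1071 at 2-fold, 6005 with lane as a term, 5505 in lane 6 only, 6003 without lane 8, and 41 to 5128 leaving out 1 library. In 35S:NGA against WT, 27 (15 higher, 12 lower) became 74 after quantile normalization (26 higher, 48 lower), 33 with equal medians (14 higher, 19 lower), 56 with the filter at a mean of 5 RPKM, 328 with only the groups compared, 81 with a pseudocount of 0.1, 45 without the trend, 14 with lane as a term, 276 without lane 8, and 1 to 271 leaving out 1 library. In 35S:NGA against nga, 949 became 608 at a mean of 5 RPKM, 577 with only the groups compared, 526 at 2-fold, 145 with lane as a term, 2046 without lane 8, and 354 to 2505 leaving out 1 library.

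Libraries with the same number did not all deviate together, with correlations from -0.26 to 0.37. The deviations of WT 1 and WT 2 from their mean mirror each other by construction. These correlations therefore cannot show whether the numbers pair the samples. The replicate block called 3892, 22 and 1092 genes in the 3 comparisons and 2, 0 and 0 type-A regulators. With 2 WT libraries, 1 of them carries much of each difference from WT, and ARR3 and ARR17 lie too low to be compared at this depth.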

Other observations

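ARR22, a type-C response regulator that resembles the receiver domain of the type-A proteins, was listed at 1.07 RPKM in 35S:NGA 3 and at 0.109 RPKM or less in the 7 other libraries, with 0 in both WT libraries. ARR24, the other type-C regulator, was listed at 0.0658 RPKM in WT 1 and at 0 elsewhere. ARR3 was also highest in 35S:NGA 3, at 0.611 RPKM against 0.247 RPKM in the next library. The summed mature pollen markers, 212 RPKM in 35S:NGA 3, and the summed green tissue markers, 9573 RPKM, were highest in that library too, and their part in these values was not tested. These genes were picked out after their values were seen.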
